A study of Homo sapiens with 54 samples.

Results

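Regions bound by POLR3A and by POLR3C, a pair of subunits of RNA polymerase III, were compared in vehicle-treated T47D cells, a human luminal breast cancer line with estrogen and progesterone receptors. The members were all rows of both vehicle peak lists on chromosomes 1 to 22 and X: 688 POLR3A regions and 666 POLR3C regions, 1354 of the 520465 rows in the 16 lists of the series. A region was counted as shared when it overlapped a region of the other list by at least 1 bp, and as lone otherwise. Each region was placed at a tRNA gene (within 200 bp), at another polymerase III gene (within 200 bp), at an end of a protein-coding gene (within 1 kb) or at neither, in that order. The series holds 54 ChIP-seq and input libraries of T47D cells treated for 1 h with ethanol vehicle or with R5020, a synthetic progestin, and the vehicle arm was used here unless R5020 is named. Both arms shared the medium, which held serum and insulin. Each list stands for 3 libraries of one antibody and treatment, so replicate spread cannot be given and no test over samples could be made. Shares therefore carry 95% Wilson intervals and differences of shares 95% Newcombe intervals, which cover the counting of regions only. Where a count is 0, the upper limit given is the share that 3 regions would make, in place of the Wilson limit. Neighbouring regions and near-identical gene copies are not independent. The POLR3A libraries belong to a first set that also holds the inputs, and the POLR3C libraries to a second set with its own library numbering, so set and antibody cannot be told apart.

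RNA polymerase III transcribes tRNAs, 5S ribosomal RNA, U6 and other short RNAs. POLR3A is its largest subunit and forms part of the catalytic centre, whereas POLR3C sits at the edge of the enzyme in a small subcomplex with POLR3F and either POLR3G or POLR3GL, which helps to open the promoter. At tRNA genes the promoter lies inside the gene, in the A box and B box, and recruitment runs through TFIIIC and a TFIIIB that contains Brf1. At U6, 7SK, Y RNA and similar genes the promoter lies upstream of the start, and TFIIIB contains BRF2 in place of Brf1. H3K27Ac, acetylated histone H3, marks active promoters and enhancers, and Maf1 is a repressor of polymerase III.

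The stretches below show where the subunits were found together and apart, each the 250 bases before a RefSeq gene start (GRCh38.p14, 5′ to 3′ on the strand of the gene). The first pair holds a tRNA gene or part of one, and the capitals mark a match to the B box letters (GGTTCGA, then any 2 bases, then CC) on either strand. The TIA1 window contains the B box end of TRG-CCC2-1, a tRNA-Gly gene under a shared region (POLR3A fold enrichment 58.0, POLR3C 4.93). The LINC01556 window contains TRL-AAG2-2, a tRNA-Leu gene under a lone POLR3A region (fold 56.5).
TIA1, chr2:70248794-70249043, minus strand: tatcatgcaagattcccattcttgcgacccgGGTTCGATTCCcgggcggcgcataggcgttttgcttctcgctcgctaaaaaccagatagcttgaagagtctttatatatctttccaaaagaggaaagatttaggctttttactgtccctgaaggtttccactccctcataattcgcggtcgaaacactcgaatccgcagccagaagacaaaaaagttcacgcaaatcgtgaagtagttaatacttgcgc
LINC01556, chr6:28943534-28943783, plus strand: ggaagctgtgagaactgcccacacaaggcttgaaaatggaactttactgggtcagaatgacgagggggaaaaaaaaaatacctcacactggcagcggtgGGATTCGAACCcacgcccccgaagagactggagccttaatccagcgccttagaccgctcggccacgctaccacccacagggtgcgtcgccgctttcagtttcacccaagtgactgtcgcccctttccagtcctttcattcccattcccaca
The other windows lay under lone POLR3C regions, and their capitals mark the letters TGGTNCG on either strand, a string described with the protein-coding genes below. PRKCI is shown because it had the highest −log10 q of all lone POLR3C regions, and it holds no match in these bases. PTOV1, SMC3 and DLST were picked as examples that hold the string, which was in 29.3% of lone POLR3C windows.
PRKCI, chr3:170222174-170222423, plus strand: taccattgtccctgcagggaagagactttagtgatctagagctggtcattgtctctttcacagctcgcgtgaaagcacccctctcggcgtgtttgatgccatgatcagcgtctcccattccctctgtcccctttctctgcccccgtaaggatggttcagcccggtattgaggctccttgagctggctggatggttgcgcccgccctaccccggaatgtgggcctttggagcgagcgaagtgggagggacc
PTOV1, chr19:49850909-49851158, plus strand: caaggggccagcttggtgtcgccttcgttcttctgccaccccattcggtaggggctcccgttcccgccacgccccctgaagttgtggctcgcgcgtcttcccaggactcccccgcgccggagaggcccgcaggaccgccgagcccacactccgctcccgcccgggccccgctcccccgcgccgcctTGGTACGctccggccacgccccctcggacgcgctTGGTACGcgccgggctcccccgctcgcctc
SMC3, chr10:110567445-110567694, plus strand: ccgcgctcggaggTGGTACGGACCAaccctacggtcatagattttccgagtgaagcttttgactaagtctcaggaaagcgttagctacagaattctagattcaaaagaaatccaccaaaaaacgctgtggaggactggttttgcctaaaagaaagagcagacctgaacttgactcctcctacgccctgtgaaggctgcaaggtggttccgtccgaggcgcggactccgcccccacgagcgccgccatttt
DLST, chr14:74881666-74881915, plus strand: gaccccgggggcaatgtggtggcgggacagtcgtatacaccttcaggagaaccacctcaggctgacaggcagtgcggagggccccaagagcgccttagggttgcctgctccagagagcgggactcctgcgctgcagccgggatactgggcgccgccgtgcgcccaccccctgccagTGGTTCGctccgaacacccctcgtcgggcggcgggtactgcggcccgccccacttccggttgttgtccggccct

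The subunits were found together at a minority of regions, and the shared regions were mostly polymerase III genes. Of the POLR3A regions, 115 overlapped a POLR3C region, which is 16.7% (14.1 to 19.7). Of the POLR3C regions, 125 overlapped a POLR3A region, which is 18.8% (16.0 to 21.9). Among the 115 shared POLR3A regions, 79 were at tRNA genes and 20 at other polymerase III genes. The merged stretches of both lists numbered 1228, with 114 holding both subunits, 573 POLR3A alone and 541 POLR3C alone.

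**Figure D1:**
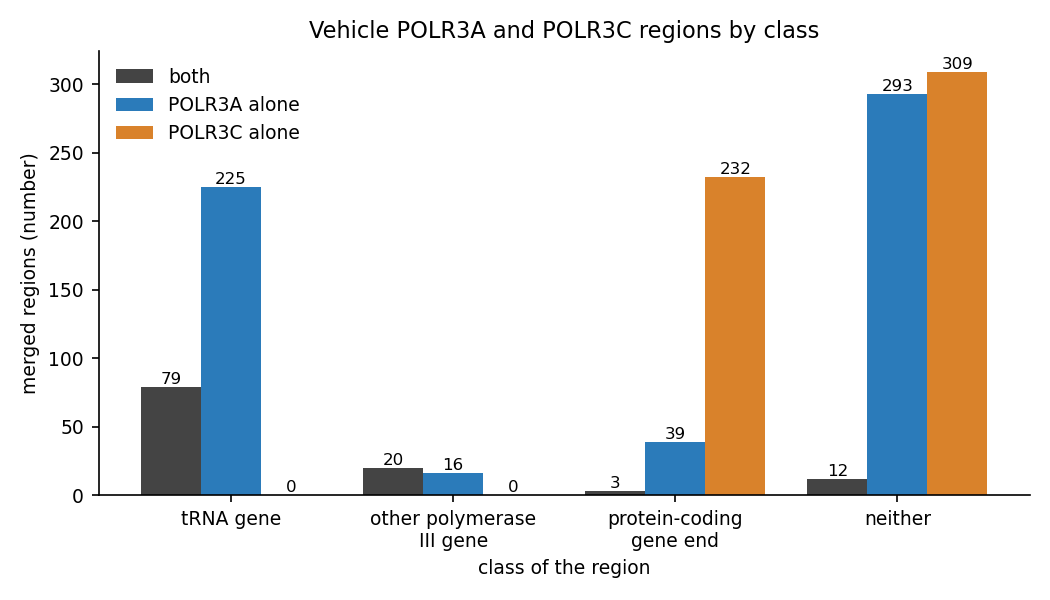
Number of merged regions (vertical axis) in each class (horizontal axis), split by whether both subunits, POLR3A alone or POLR3C alone was listed. POLR3C alone is at 0 for tRNA genes and other polymerase III genes, at 232 for protein-coding gene ends and at 309 for neither.

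The lone regions of the subunits differed in kind. None of the 541 lone POLR3C regions was at a tRNA gene or another polymerase III gene, which allows a share of up to 0.555% in either class, within the 200 bp window, whereas 225 of the 573 lone POLR3A regions (39.3%, 35.4 to 43.3) were at tRNA genes and 16 at other polymerase III genes. Protein-coding gene ends held 232 lone POLR3C regions (42.9%, 38.8 to 47.1) and 39 lone POLR3A regions (6.81%, 5.02 to 9.17), which is 36.1 points more for POLR3C (31.3 to 40.6). The remaining 309 lone POLR3C and 293 lone POLR3A regions were at neither kind of gene. Read by class, 26.0% of the 304 POLR3A regions at tRNA genes were shared (21.4 to 31.2; 44.0% of 116 without the stretches of 1 Mb that hold 8 or more regions of a list), against 7.14% of 42 at protein-coding gene ends (2.46 to 19.0) and 4.25% of 306 at neither (2.50 to 7.13). All 88 POLR3C regions at tRNA genes and all 19 at other polymerase III genes were shared, against 2.11% of 237 at protein-coding gene ends (0.904 to 4.84). With the window widened to 1 kb, 94.7% of the POLR3C regions at tRNA genes and 75% at other polymerase III genes were shared, so a few lone POLR3C regions lay between these distances. When at least 50% of both regions had to be in common, 3.62% of the POLR3A and 12.5% of the POLR3C regions at tRNA genes were shared. In the 88 shared pairs at tRNA genes the POLR3C region was 282 bp wide at the median and the POLR3A region 1020 bp, and 87 of the POLR3C regions lay wholly inside the POLR3A region. Over all 126 pairs the summits were 37.5 bp apart at the median, and 91 pairs lay within 100 bp.

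The deposited folds were far lower in the POLR3C list, but folds of different antibodies are not on a common scale. The fold enrichment over background, the authors' own value for each peak, had a median of 10.9 and a maximum of 58.0 for POLR3A, and a median of 3.34 and a maximum of 9.16 for POLR3C. At shared tRNA regions the POLR3A fold had a median of 46.1 (quartiles 36.6 and 54.4), and at lone POLR3A tRNA regions 30.0 (11.7 and 46.5). Ranked within the whole POLR3A list, shared regions had a median percentile of 76.3 and lone regions 45.7. This difference of 30.6 points was -1.33 points among the top 300 of each list by −log10 q, and -6.98 points when at least 50% of both regions had to be in common. By class, the median percentiles of shared and lone regions were 83.7 and 68.6 at tRNA genes. In the other classes shared regions ranked lower than lone ones. The medians were 45.3 and 81.1 at other polymerase III genes, 19.5 and 31.8 at gene ends, and 2.33 and 28.5 at neither. In the POLR3C list the median fold was 4.48 at lone protein-coding gene ends, 4.13 at tRNA genes, 2.86 at the 5 shared gene ends, 2.43 at other polymerase III genes and 2.35 at lone regions at neither.

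tRNA genes were the main place of overlap. RefSeq listed 422 nuclear tRNA genes in the standard naming, of which 360 (85.3%) had a POLR3A region and 99 (23.5%) a POLR3C region. All 99 genes with POLR3C also had POLR3A, 261 had POLR3A alone and 62 had neither. The 99 genes came from 21 of the 22 isotype groups and 41 of the 46 anticodons with POLR3A. The group without POLR3C was selenocysteine tRNA, with 1 gene carrying POLR3A. Among genes with POLR3A, glycine tRNA genes had POLR3C at 11 of 27 (40.7%, 24.5 to 59.3), alanine at 8 of 25, leucine at 8 of 28 and lysine at 8 of 22. The lowest shares among groups of more than 10 such genes were asparagine with 1 of 16 (6.25%, 1.11 to 28.3) and cysteine with 3 of 21. Most of these intervals overlap. A further 21 RefSeq tRNA entries in another naming style were not in the class, and 3 POLR3A and 0 POLR3C regions lay at them.

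Of the shared tRNA regions, 11 tie at the highest −log10 q, and the 3 named here were taken by fold and then by position. The POLR3A fold was 58.0 at each, the ceiling of that list, which 14 regions share. At TRA-TGC3-2 (chr12:124921333-124922186), a tRNA-Ala gene, POLR3C had a fold of 4.60. At TRS-GCT4-2 (chr15:40593421-40594255), a tRNA-Ser gene beside the kinetochore gene KNL1, POLR3C had a fold of 5.10. At TRL-AAG2-4 (chr16:22296815-22297779), a tRNA-Leu gene upstream of POLR3E, itself the gene of a polymerase III subunit, POLR3C had a fold of 4.18. Lone POLR3A regions reached the same ceiling, with 6 tied at the highest −log10 q: TRE-TTC2-1 on chromosome 13, the pair TRL-CAG2-1 and TRL-CAG2-2 on chromosome 16, and TRG-GCC1-5 on chromosome 21 all had a POLR3A fold of 58.0 and no POLR3C region.

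H3K27Ac separated tRNA regions with POLR3C from those without. H3K27Ac overlapped 42.0% of all POLR3A regions and 127 of the 304 at tRNA genes. Of those 127 regions, 75 had POLR3C (59.1%, 50.4 to 67.2). Of the 177 without H3K27Ac, 4 had POLR3C (2.26%, 0.882 to 5.67). The shares lay 56.8 points apart (47.5 to 65.1). The 4 exceptions lay at TRG-GCC1-1, at TRE-CTC1-5 with TRG-TCC2-5, at TRK-CTT1-1 and at TRQ-TTG3-3. These counts take H3K27Ac over the whole POLR3A region. Taken over the narrower POLR3C regions, H3K27Ac overlapped 77 of the 88 at tRNA genes (87.5%, 79.0 to 92.9), so the exceptions depend on the region used. POLR3A enrichment moved with H3K27Ac too, with a median fold of 46.5 where it was present and 23.8 where it was absent. With the lowest quartile of POLR3A fold left out the split was of like size: 75 of 125 regions with H3K27Ac had POLR3C against 2 of 103 without, 58.1 points apart (48.0 to 66.3). In the quartile of highest POLR3A fold, 28 of 48 regions with H3K27Ac had POLR3C against 0 of 28 without, which allows a share of up to 10.7%. Among tRNA regions with H3K27Ac, the POLR3A fold of the 75 with POLR3C (median 46.8, range 20.7 to 58.0) overlapped that of the 52 without (median 46.0, range 5.74 to 58.0). The width of the POLR3A regions differed between these groups. With H3K27Ac the median width was 985 bp with POLR3C and 780 bp without. In the absence of H3K27Ac it was 691 bp with POLR3C and 426 bp without. The part of region width in the split was not tested. When at least 50% of both regions had to be in common, the difference with H3K27Ac was 5.96 points, and among the 300 strongest regions of each list 29.4 points.

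**Figure D2:**
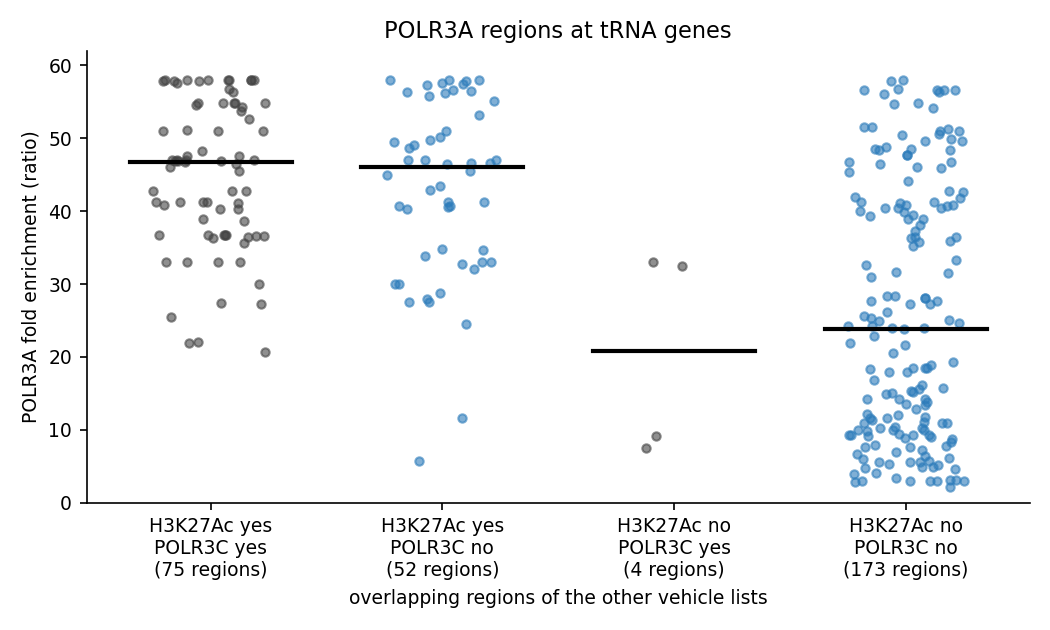
POLR3A fold enrichment (vertical axis, ratio) of each of the 304 POLR3A regions at tRNA genes, grouped by overlap with H3K27Ac and with POLR3C (horizontal axis). Points are regions and lines are medians. The regions with H3K27Ac have medians of 46.8 with POLR3C and 46.0 without, and only 4 of these POLR3A regions have POLR3C without H3K27Ac.

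Brf1 and POLR3G were also compared at tRNA genes. All 79 shared regions overlapped Brf1, and 0 of the 60 POLR3A tRNA regions without Brf1 had POLR3C, which allows a share of up to 5%. Of those 60, 56 were in the lowest quartile of POLR3A fold. With that quartile left out, 77 of 224 regions with Brf1 and 0 of 4 without had POLR3C, and the interval of that difference (-15.0 to 40.8) holds 0. POLR3G overlapped 78 of the 79 shared and 84 of the 225 lone POLR3A regions there. With the lowest quartile of POLR3A fold left out, 77 of 157 regions with POLR3G and 0 of 71 without had POLR3C, 49.0 points apart (39.8 to 56.8). POLR3G and H3K27Ac move together at these regions, and their separate parts and that of region width were not tested.

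Chromosome 6, which holds the largest tRNA cluster, had less POLR3C. There 18 of 127 tRNA genes with POLR3A had POLR3C (14.2%, 9.16 to 21.3), against 81 of 233 elsewhere (34.8%, 28.9 to 41.1), which is -20.6 points (-28.7 to -11.4). H3K27Ac was at 38 of the 127 genes on chromosome 6 and at 132 of the 233 elsewhere. Among genes with H3K27Ac the shares were 17 of 38 and 76 of 132, or -12.8 points (-29.5 to 4.90), an interval that holds 0.

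At the other polymerase III genes, POLR3A was nearly complete and POLR3C was not. Of 37 genes, 36 had a POLR3A region, the exception being the vault RNA gene VTRNA2-1, and 19 had POLR3C. The 5S ribosomal RNA genes, a tandem array of near-identical copies on chromosome 1, supplied 15 of the 19: RNA5S1 to RNA5S14 and RNA5S17 had both subunits. RNA5S15 had POLR3A alone, and RNA5S16 had no POLR3C region within 200 bp. The POLR3A region at RNA5S16 did overlap a POLR3C region beside the gene by 173 bp (POLR3C fold 2.26), so it counts among the shared regions. Folds in the array were low, between 6.75 and 10.9 for POLR3A and between 1.92 and 2.77 for POLR3C. Reads of such copies may be split between them, so the single genes are uncertain. With a fold of at least 3 required in both lists, 8.33% of the 36 POLR3A regions in this class were shared in place of 55.6% (39.6 to 70.5).

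Outside the 5S array POLR3A folds ran from 19.5 to 58.0, and 4 of the 20 genes had POLR3C. RN7SL1, the RNA of the signal recognition particle, had a POLR3A fold of 45.2 and a POLR3C fold of 3.64, whereas its sister gene RN7SL2 had POLR3A alone at 19.5, although both had H3K27Ac. VTRNA1-2 had folds of 41.2 and 3.54, while the neighbouring VTRNA1-1 and VTRNA1-3 had POLR3A alone at 48.0 and 58.0, and VTRNA1-2 was the one of the 3 with H3K27Ac. BCYRN1, a brain cytoplasmic RNA, had POLR3A alone at 35.9 and no H3K27Ac. RN7SK, which restrains the elongation factor P-TEFb, had folds of 49.8 and 3.50. RNY3, a Y RNA gene, had folds of 57.2 and 3.00, and its neighbours RNY1, RNY4 and RNY5 had POLR3A alone at 57.6, 57.4 and 46.8. The U6 genes RNU6-1, RNU6-2, RNU6-7, RNU6-8 and RNU6-9 had POLR3A alone at 39.7, 54.5, 26.8, 37.6 and 57.2. RMRP and RPPH1, the RNAs of RNase MRP and RNase P, had POLR3A alone at 56.3 and 24.5, and RNU6ATAC, of the minor spliceosome, at 32.5.

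The 13 genes of this class with an upstream promoter differed from acetylated tRNA genes. All 13 had POLR3A and H3K27Ac and none had Brf1, and POLR3C was listed at 2 of them, RN7SK and RNY3 (15.4%, 4.33 to 42.2). POLR3A regions at tRNA genes with H3K27Ac had POLR3C in 59.1%, so the upstream-promoter genes were lower by 43.7 points, with an interval of the difference from -57.4 to -15.4. This grouping was made after the values were seen.

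**Figure D3:**
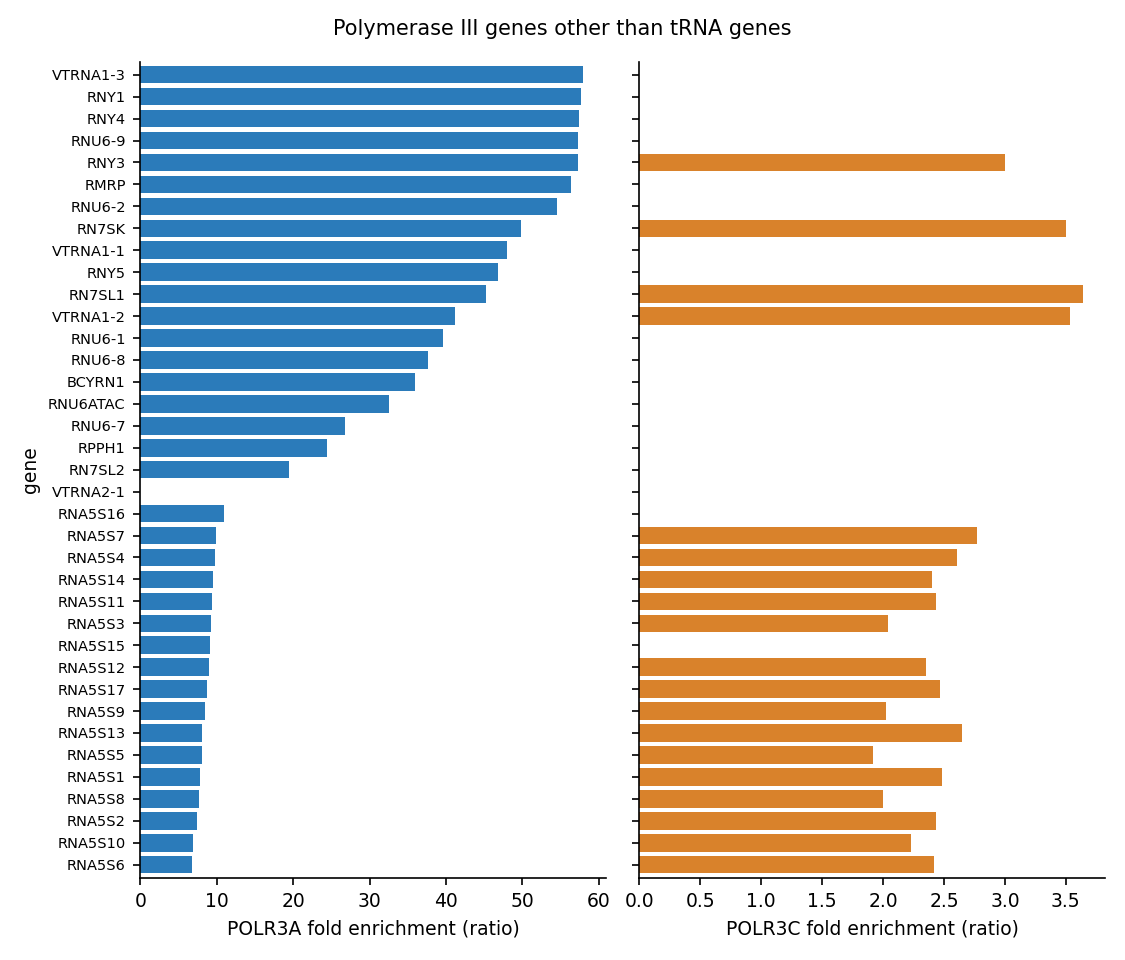
POLR3A fold enrichment (left panel, ratio) and POLR3C fold enrichment (right panel, ratio, on its own scale) at each of the 37 polymerase III genes other than tRNA genes, with no bar where no region was listed within 200 bp of the gene. POLR3A is listed at 36 genes, and POLR3C at 15 of the 5S genes and at RN7SL1, VTRNA1-2, RN7SK and RNY3.

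Protein-coding gene ends held 232 of the lone POLR3C regions. Of 19974 protein-coding genes, 336 (1.68%) had a POLR3C region within 1 kb of an end and 102 (0.511%) a POLR3A region, while 68.3% had H3K27Ac there. The lone POLR3C regions at gene ends were mostly acetylated, with H3K27Ac at 201 of 232 (86.6%, 81.7 to 90.4), and POLR3G was at 182 of them (78.4%, 72.7 to 83.3). Not all lay at single genes. The USP17L array on chromosome 4 from 9 to 10 Mb held 7, with 0 overlapping H3K27Ac, and the chromosome 8 array described below held others. Lone POLR3A regions at gene ends had H3K27Ac at 34 of 39 (87.2%, 73.3 to 94.4). POLR3G was at 26 of those 39 (66.7%, 51.0 to 79.4), so the intervals of both marks overlap between the subunits. Brf1 was at 1 of the 232 lone POLR3C regions (0.431%, 0.0761 to 2.40). Of these regions 179 lay within 1 kb of a RefSeq gene start with a promoter window. Their summits were upstream of the start in 133 (74.3%, 67.4 to 80.1), with a median position of -117 bp and an upper quartile of 0.5 bp. Of the 39 lone POLR3A regions, 25 lay by a start, with a median position of -417 bp. Their summits were upstream in 20 of the 25 (80%, 60.9 to 91.1), so the upstream side was common to both subunits. Summits within 250 bp upstream made up 57.5% (50.2 to 64.5) for lone POLR3C and 12% (4.17 to 30.0) for lone POLR3A. Starts on both strands lay beside 47 of the 179 lone POLR3C regions (26.3%) and beside 1 of the 25 lone POLR3A regions.

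**Figure D4:**
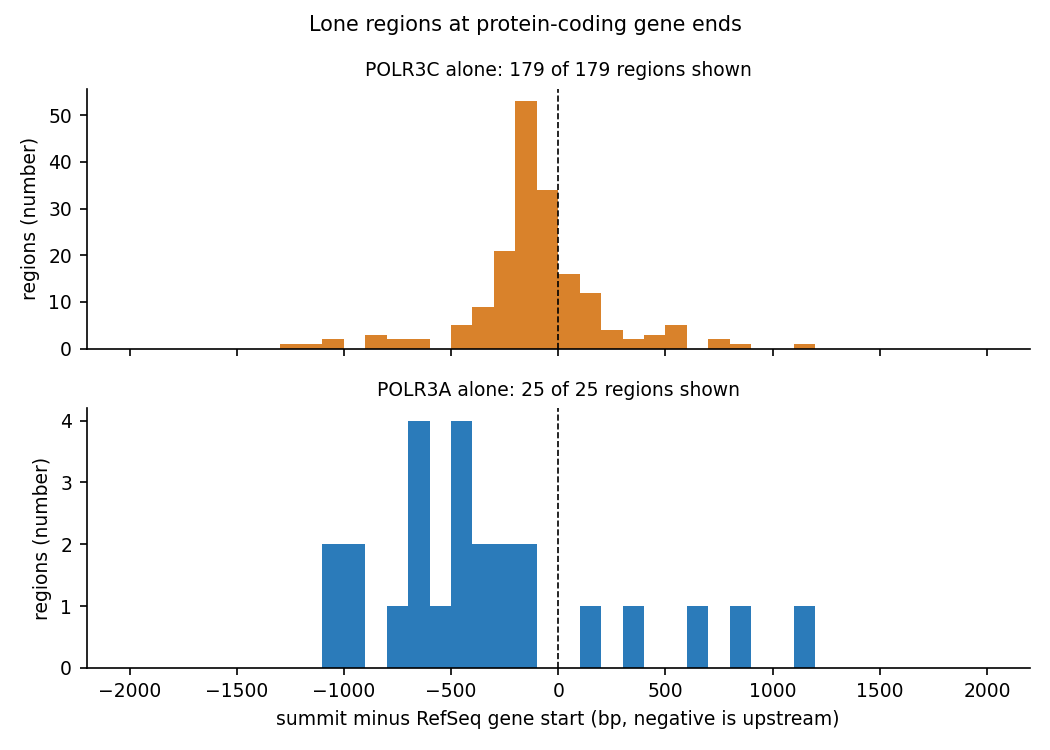
Position of the summit of lone POLR3C regions (upper panel) and lone POLR3A regions (lower panel) relative to a RefSeq gene start (horizontal axis, bp, negative values upstream). Bars count regions in steps of 100 bp (vertical axes differ in scale). The POLR3C summits gather just upstream of the start, with a median of -117 bp, and the POLR3A summits lie farther out, with a median of -417 bp.

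The strongest lone POLR3C regions were at PRKCI, PRDM10 and the pair SNX8 and EIF3B. At PRKCI (chr3:170221771-170222711), the atypical protein kinase C iota gene whose upstream bases are printed above, the POLR3C fold was 7.59 and −log10 q 70.5, with the summit at -221 bp. At PRDM10 (chr11:130001735-130003084), a zinc finger transcription factor gene, the fold was 7.44 and −log10 q 52.3. Between SNX8, a sorting nexin gene, and EIF3B, which encodes a subunit of a translation initiation factor (chr7:2353638-2355748), the fold was 9.16, the highest of the list. All 3 regions overlapped H3K27Ac and POLR3G and none overlapped Brf1. The 3 shared POLR3A regions at gene ends lay at PPP6R3, a phosphatase regulatory gene, with folds of 38.5 for POLR3A and 2.86 for POLR3C, at SELENOP, which encodes the plasma selenium carrier, with 4.41 and 3.97, and at LOC101929601, with 1.78 and 2.00. The strongest lone POLR3A region in this class was a further one at POLR3E (chr16:22298047-22298907), with a fold of 56.9.

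Members of the gene lists with either subunit at an end were counted beside the 1.68% of all protein-coding genes with POLR3C. Regions of any class count here, as the shared tRNA region at POLR3E does. A region can count for several neighbouring genes, which the intervals do not allow for. Of 36 genes of the polymerase III machinery, POLR2L and POLR3E had POLR3C, and POLR3E alone had POLR3A. Of 79 cytosolic ribosomal protein genes, RPL12, RPL19, RPL23A and RPL35 had POLR3C (5.06%, 1.99 to 12.3) and 0 had POLR3A. Of 74 replication-dependent histone genes, H2AC20, H2AC21, H2BC21, H4C8 and H4C14 had POLR3C (6.76%, 2.92 to 14.9), and H2BC10 and H4C8 had POLR3A. None of 21 cytosolic aminoacyl-tRNA synthetase genes, which charge tRNAs, had either. Of 25 polymerase II small nuclear RNA and U3 genes, 10 had POLR3C (40%, 23.4 to 59.3). These were RNU1-1, RNU1-2, RNU1-3, RNU1-4, RNU2-2, RNU5B-1, RNVU1-7, SNORD3A, SNORD3B-1 and SNORD3B-2, of which RNU5B-1 and RNVU1-7 also had POLR3A. SNORD3A, a U3 gene needed for ribosomal RNA processing, had a POLR3C fold of 7.89 and RNU1-3, a U1 gene, 5.15. The other 8 ranged from 2.56 to 3.80. Other lists covered these genes as well: H3K27Ac was at 25 of the 25, PR at 24, POLR3G at 24 and Maf1 at 23. Several of them are near-identical copies.

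The letters of promoter windows under the regions were counted. RefSeq promoter windows of 300 bases, from 250 before to 50 after a start, numbered 34789, of which 290 (0.834%) lay under a lone POLR3C region, 35 under a lone POLR3A region and 19 under a shared one. GC content had a median of 64.0% under lone POLR3C, 55.0% under lone POLR3A and 66.0% in windows with H3K27Ac and no POLR3C in either treatment. The B box letters were in 8 of the 35 lone POLR3A windows (22.9%), 3 of the 19 shared windows (15.8%) and 0 of the 290 lone POLR3C windows, against 0.187% of all windows. Some of these windows hold a tRNA gene, as the printed LINC01556 stretch does, or part of one, as the TIA1 stretch does. Counting every string of 8 bases in the 257 protein-coding windows with lone POLR3C put TTGGTACG and its overlapping neighbour TGGTACGG at the top, in 6.23% and 6.61% of them against 0.191% and 0.341% of all protein-coding windows. Their shared letters TGGTACG were in 34 of the 290 lone POLR3C windows (11.7%), in 0.681% of all windows and in 0.648% of windows with H3K27Ac and no POLR3C. With any base in place of the A, TGGTNCG was in 85 of 290 (29.3%), in 5.78% of all windows and in 8.10% of those with H3K27Ac and no POLR3C. Shared windows held TGGTACG in 2 of 19 (10.5%, 2.94 to 31.4) and TGGTNCG in 4 (21.1%, 8.51 to 43.3), and lone POLR3A windows in 1 of 35 (2.86%, 0.506 to 14.5) and 5 (14.3%, 6.26 to 29.4). These intervals overlap those of lone POLR3C windows (8.51 to 15.9 and 24.4 to 34.8), so the strings are not shown to set lone POLR3C apart from POLR3A. TGGTNCG overlaps the B box letters where its N is T. The strings were chosen from these windows, so their excess there is a description of them. In 42 windows with POLR3C in the R5020 list and not in vehicle, which did not enter the count, TGGTACG was in 2 (4.76%, 1.32 to 15.8) and TGGTNCG in 8 (19.0%, 9.98 to 33.3). The R5020 list is not a clean second condition, since 2 of its 3 libraries carry a vehicle tag. Matches of TGGTNCG lay at a median of 77 bp from the nearest POLR3C summit. Only windows of 300 bases under these regions were searched, which bounds the distance. No baseline was computed, so the value does not show that the string sits at the summit. PTOV1 holds 2 copies of TGGTACG in the printed bases, with the POLR3C summit at -72 bp. SMC3, a cohesin subunit gene, holds a pair of overlapping matches beside its summit at -230 bp. DLST, which encodes a component of the 2-oxoglutarate dehydrogenase complex, holds 1 match, with the summit at -87 bp. The GC box GGGCGG was in 60.3% of lone POLR3C windows and 69.5% of windows with H3K27Ac and no POLR3C, and CCAAT in 33.1% and 33.2%.

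The regions at neither kind of gene were weak for POLR3C and mixed for POLR3A. Lone POLR3C regions at neither had H3K27Ac in 97 of 309 (31.4%), with a median fold of 3.44, against 2.14 in the 212 without. The strongest lay over PMVK, the phosphomevalonate kinase gene (chr1:154936421-154937565), with a fold of 8.70, and at chrX:48021067-48021997, with a fold of 8.50. A stretch on chromosome 8 from 85 to 86 Mb with the REXO1L pseudogene array held 49 POLR3C regions (7.36% of the list, folds 1.45 to 2.51). Of these, 41 were at neither and 8 at gene ends, 1 was shared, at a gene end, and 0 overlapped H3K27Ac. Dense stretches with POLR3C regions at neither only included chromosome 17 from 43 to 44 Mb (18 regions, median fold 2.35). Others were chromosome 10 from 40 to 41 Mb (16, median 2.03) and chromosome 1 from 124 to 125 Mb (12, median 2.08). Lone POLR3A regions at neither included 37 at annotated pseudogenes of polymerase III genes (median fold 7.55), 18 at SNAR genes, small primate RNAs (median fold 24.0, Brf1 at 17), and 15 at 45S ribosomal RNA genes (median fold 4.06), while lone POLR3C regions held 0 of 309 at each, which allows up to 0.971%. These groups were named after the values were seen. The strongest lone POLR3A region at neither was at chrX:47802382-47803086, with a fold of 58.0, Brf1, POLR3G and H3K27Ac. It was followed by TRNAV-CAC, a tRNA-Val entry in the other naming style (chr1:145160831-145161497), with a fold of 48.3, and by the pseudogene TRS-ACT1-1 (chr6:27293684-27294188), with 49.6. The 13 shared POLR3A regions at neither were weak, with a median fold of 1.85. The 3 of highest −log10 q had POLR3A folds of 2.12, 2.21 and 2.06 and POLR3C folds of 2.03, 2.16 and 2.43. They lay at chr10:40135114-40135269, chr1:228622354-228622578 and chr7:58797751-58797925. The chromosome 10 stretch from 40 to 41 Mb held 3 of the 13. The chromosome 1 region lay within the tandem ribosomal RNA array described above, as did others of the 13. Not all of the 13 therefore stand for sites away from polymerase III genes.

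**Figure D5:**
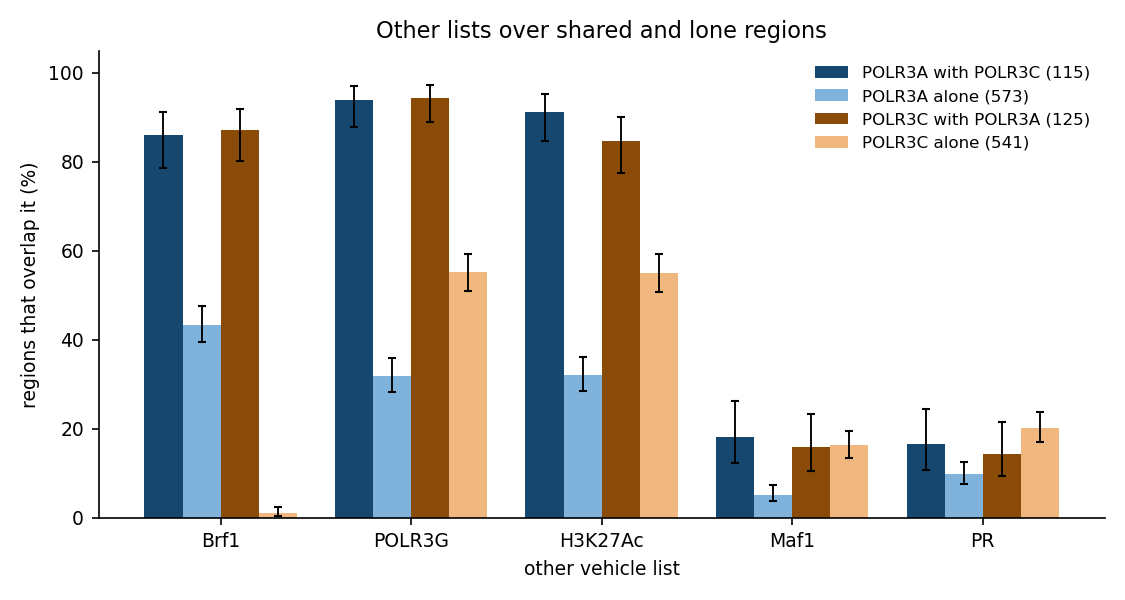
Share of regions (vertical axis, %) that overlap each other vehicle list (horizontal axis), for shared and lone regions of both subunits, with the number of regions in the legend. Bars start at 0 and error bars are 95% Wilson intervals. Lone POLR3C regions have Brf1 in 1.11% and POLR3G and H3K27Ac in over 50% of regions.

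Across all classes, Brf1 set lone POLR3C regions apart most. Brf1 overlapped 50.6% of all POLR3A and 17.3% of all POLR3C regions. It was at 86.1% of shared and 43.5% of lone POLR3A regions, and at 87.2% of shared and 1.11% of lone POLR3C regions. The difference on POLR3A, 42.6 points, was 8.76 points among the top 300 of each list. Lone POLR3C was below lone POLR3A by 42.3 points, with an interval of the difference from -46.5 to -38.1. Much of this gap goes with class, since 165 of the 249 lone POLR3A regions with Brf1 were at tRNA genes. Within a class, lone POLR3C and lone POLR3A had Brf1 in 0.431% and 23.1% at gene ends. At neither kind of gene the shares were 1.62% and 23.9%. The Brf1, H3K27Ac, Maf1 and PR libraries belong to the first set together with POLR3A. Library set and antibody therefore cannot be told apart in gaps between lone POLR3A and lone POLR3C. POLR3G overlapped 42.3% of POLR3A and 62.6% of POLR3C regions, at 93.9% of shared and 31.9% of lone POLR3A and at 94.4% of shared and 55.3% of lone POLR3C regions. The POLR3G list is wide, with 58423 regions, and belongs to the second set of libraries together with POLR3C. H3K27Ac overlapped 60.7% of POLR3C regions, at 84.8% of shared and 55.1% of lone ones, 29.7 points apart (21.3 to 36.4). With a fold of at least 3 in both lists that difference was -1.51 points (-10.6 to 5.31). Maf1 overlapped 7.41% of POLR3A and 16.2% of POLR3C regions. It was at 18.3% of shared and 5.24% of lone POLR3A regions, 13.0 points apart (6.66 to 21.2), and at 16.0% of shared and 16.3% of lone POLR3C regions, a difference of -0.266 points (-6.62 to 7.69). PR, the progesterone receptor, overlapped 10.9% of POLR3A and 19.1% of POLR3C regions, with 9.77% of lone POLR3A and 20.1% of lone POLR3C. At shared regions the shares were 16.5% of POLR3A, 6.75 points above lone ones (0.455 to 14.9), and 14.4% of POLR3C. POLR3GL, the alternative to POLR3G, overlapped 0.0% of POLR3A and 0.45% of POLR3C regions, all 3 of them lone.

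The split recurred in the R5020 lists, which share no ChIP library with vehicle by title. Of the R5020 POLR3C libraries, 2 of 3 carry a vehicle treatment tag against their titles, so recurrence there may be partly vehicle against vehicle. R5020 POLR3A overlapped 83.3% of vehicle POLR3A and 24.5% of vehicle POLR3C regions, and R5020 POLR3C overlapped 17.6% and 63.5%. Of the 115 shared POLR3A regions, 101 also had R5020 POLR3C (87.8%, 80.6 to 92.6), against 20 of the 573 lone ones (3.49%, 2.27 to 5.33). Lone POLR3C regions at gene ends recurred with R5020 POLR3C in 191 of 232 (82.3%, 76.9 to 86.7) and had R5020 POLR3A in 6 (2.59%, 1.19 to 5.53). Lone POLR3C regions at neither recurred in 121 of 309 (39.2%, 33.9 to 44.7). Among lone POLR3A regions at tRNA genes, 12 of 52 with H3K27Ac (23.1%) and 4 of 173 without (2.31%) had R5020 POLR3C.

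As a look at the labelled cell type, H3K27Ac was within 1 kb of an end of 6 of 6 luminal breast genes, 1 of 3 basal genes and 2 of 3 white blood cell genes in the list, beside 68.3% of all protein-coding genes. Lists of this size cannot establish a cell type.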

How the data were processed

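The authors' tools were cutadapt, Bowtie2 and MACS2, with build hg38, per the submitters' processing notes, which give no versions. How the 3 libraries behind a list were combined, and which input was used for POLR3C, is not given in the sources used here. Each deposited list gives a fold enrichment (ratio) and a −log10 q value for each peak, both as the authors deposited them. The files hold no read counts, so depth is unknown. Of 16 lists, 10 were used. From the vehicle lists, 39 POLR3A and 40 POLR3C peaks on chromosome Y and other sequences were left out. Overlaps, classes and intervals were computed in Python 3.11.15 with pandas 2.3.3 and scipy 1.17.1, checked against bedtools on simulated regions. Genes, promoter windows and sequences came from RefSeq GRCh38.p14, the same build. Named regions were the 3 with the highest −log10 q in each class and state, with all genes of the other polymerase III list and the listed genes with POLR3C. The printed windows other than PRKCI were picked as examples that hold the marked letters, outside this ranking. Members and lists were chosen with earlier results of these data known. Alternatives varied the overlap rule, thresholds, windows and sequences used.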

Additional observations from a re-analysis of the deposited data

How the results depend on the processing

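No paired analysis was possible because each list pools its 3 libraries and carries no replicate, and no list without a library could be made. Of 181 recomputed values over 18 results and 12 alternatives, 125 stayed within the 95% interval of the value reported, or within 1.5 times the count of tRNA genes, 53 moved outside it and 3 changed sign. The alternative of dense stretches, and all alternatives for the H3K27Ac split at tRNA genes and for the gene-end difference of lone regions, were chosen after seeing the data. Requiring the summit of one region inside the other, using all sequences, gene ends within 5 kb and a 0 bp window moved nothing.

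Requiring at least 50% of both regions moved the shared share to 4.22% of POLR3A and 4.35% of POLR3C, to 3.62% and 12.5% at tRNA genes, 33.3% and 63.2% at other polymerase III genes, 0% and 0% at gene ends and 1.96% and 1.86% at neither. The differences were then -6.98 percentile points for POLR3A fold, 33.6 for Brf1, 42.5 for H3K27Ac on POLR3A, 24.7 for POLR3G, 5.96 for the tRNA H3K27Ac split and 30.8 for lone regions at gene ends. By construction this rule drops narrow POLR3C regions inside wide POLR3A regions. Counting regions within 1 kb gave 20.3 points for H3K27Ac on POLR3C and 9.32% of POLR3C shared at neither. With −log10 q of at least 5 in both lists, the differences were 19.3 for H3K27Ac on POLR3C, 31.7 for POLR3G and 46.0 for lone regions at gene ends, and 0.5% of POLR3C at gene ends was shared. With that threshold on POLR3G alone its difference was 48.8.

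With a fold of at least 3 in both lists, 12.5% of POLR3A and 23.8% of POLR3C were shared, 8.33% of POLR3A at other polymerase III genes, 0.38% of POLR3A and 1.23% of POLR3C at neither. The differences were 38.4 for POLR3A fold percentile, -1.51 for H3K27Ac on POLR3C, 19.9 for POLR3G and 64.8 for lone regions at gene ends. In the 300 strongest regions of each list, 48 tRNA genes had POLR3C. POLR3A was shared in 17.6% at tRNA genes, 27.8% at other polymerase III genes, 0% at gene ends and 0% at neither, and POLR3C in 0% at gene ends and 0% at neither. The differences were -1.33 for fold percentile, 8.76 for Brf1, 49.8 for H3K27Ac on POLR3A, 20.3 for H3K27Ac on POLR3C, 30.9 for POLR3G, 29.4 for the tRNA split and 60.3 for gene ends. With tRNA and polymerase III genes within 1 kb, 94.7% of POLR3C at tRNA genes and 75% at other polymerase III genes was shared, so some lone POLR3C regions lie near these genes but beyond 200 bp.

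Without the 20 stretches of 1 Mb that hold 8 or more regions of a list, POLR3A was shared in 44.0% at tRNA genes and 22.2% at other polymerase III genes, and 15.0% of POLR3C was shared. The differences were 37.6 for fold percentile, 56.0 for Brf1, 51.4 for H3K27Ac on POLR3A, 19.0 for H3K27Ac on POLR3C and 41.3 for gene ends. The causes of these changes were not tested except where stated. Depth is unknown, so how many POLR3A regions could have been listed for POLR3C at its lower folds was not tested.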
